A study of Mus musculus with 6 samples.

Results

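The serine proteases of the mouse chymase locus, a cluster of granule protease genes on chromosome 14, are described here in skin mast cells of embryos and adults. The 9 members Cma1, Cma2, Mcpt1, Mcpt2, Mcpt4, Mcpt8, Mcpt9, Ctsg and Gzmb were taken by symbol from a table of 47643 genes, and all 9 were found. RNA was sequenced from 6 libraries. The 3 embryonic libraries held cells sorted from skin at E16.5, by day of gestation, as CD45+ F4/80- CD64- ckit+ ST2+, which the submitters describe as descended from yolk sac hemogenic endothelium. The 3 adult libraries held cells sorted from adult skin as CD45+ F4/80- CD64- ckit+ Fcer1+, which the submitters call definitive. All mice carried Cdh5CreERT2, a tamoxifen-inducible Cre recombinase under the promoter of the endothelial gene Cdh5, and all were given 4-hydroxytamoxifen at E7.5. The labels say neither the exact adult age nor whether replicates were separate or pooled animals, so the p-values reflect only how these libraries varied, which may be technical. Age, described origin, gate and an epidermis removal step used for adult skin changed together and cannot be told apart.

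Mast cells store large amounts of serine protease in their granules, bound to heparin on the proteoglycan serglycin, and release it when they degranulate. The enzymes are made as inactive precursors, and cathepsin C trims a dipeptide from their ends to activate them. Classical chymases cut after aromatic residues. Other members of the cluster, some named chymases among them, have diverged to other cleavage preferences. Connective tissue mast cells, the kind found in skin, are known for Cma1 and Mcpt4, whereas Mcpt1 and Mcpt2 are known from mucosal mast cells, Mcpt8 from basophils, Ctsg from neutrophil precursors and mast cells, and Gzmb from cytotoxic lymphocytes.

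The cluster spanned 320808 bases of GRCm38, from the first base of Cma1 (chromosome 14, 55941453 to 55944661) to the last base of Gzmb (56258856 to 56262260). The table held 19 genes in that span. Besides the members these were the 6 granzymes Gzmc, Gzmd, Gzme, Gzmf, Gzmg and Gzmn, the processed pseudogenes Gm5801 and Gm4819, the microRNA gene Mir6949 and the small nucleolar RNA gene Gm24118. Each member had 5 exons in GENCODE M21. Cma2, Mcpt1 and Mcpt2 lay on the plus strand and the other 6 members on the minus strand.

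The promoters of Mcpt1 and Mcpt4 are shown because their letters are nearly alike while the RNA levels of these genes were far apart and differed between the groups in opposite directions, and that of Cma1 because it had the highest level of the cluster. The 250 bases before each start site are from RefSeq on GRCm38.p6, which had an entry for 7 of the 9 members. Each is written along its gene, and capitals mark GATAA or its reverse complement TTATC, the core letters of sites for GATA factors.
Mcpt1, chr14:56017714-56017963, plus strand: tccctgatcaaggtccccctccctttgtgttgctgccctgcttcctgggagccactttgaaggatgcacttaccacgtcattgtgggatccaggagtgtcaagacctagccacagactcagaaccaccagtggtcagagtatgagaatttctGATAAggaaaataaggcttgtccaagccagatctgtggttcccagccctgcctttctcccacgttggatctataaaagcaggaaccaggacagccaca
Mcpt4, chr14:56062311-56062560, minus strand: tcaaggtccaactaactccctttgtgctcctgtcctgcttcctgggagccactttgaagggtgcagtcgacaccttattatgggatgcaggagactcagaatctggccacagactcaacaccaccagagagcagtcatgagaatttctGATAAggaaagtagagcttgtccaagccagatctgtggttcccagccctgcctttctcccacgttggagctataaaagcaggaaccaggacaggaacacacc
Cma1, chr14:55944676-55944925, minus strand: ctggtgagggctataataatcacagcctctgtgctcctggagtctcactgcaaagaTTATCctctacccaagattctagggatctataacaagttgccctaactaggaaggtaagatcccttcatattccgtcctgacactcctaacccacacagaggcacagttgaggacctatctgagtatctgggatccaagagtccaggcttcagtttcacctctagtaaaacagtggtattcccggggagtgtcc

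Of the bases aligned between the Mcpt1 and Mcpt4 windows, 209 of 242 (86.4%) were identical. The other 20 pairs of member promoters shared 53.8% to 65.9%. For Gzmb the RefSeq start differs from GENCODE, as its window begins at 56262335 while the gene ends at 56262260. None of the 31 short stretches checked after that start occurred in a GENCODE M21 transcript of Gzmb. Both windows held GATAA, with its first base 98 bases before the start in Mcpt1 and 102 before it in Mcpt4. Both also held TGTGGT, letters bound by RUNX factors, at 65 and 69 bases before the start. TGTGGT or its reverse complement ACCACA was not particular to this pair, as Mcpt8, Ctsg and Gzmb held it too. A TATA box sequence, TATAAA, began 28 bases before the start in Mcpt1 and 32 before it in Mcpt4. Its reverse complement TTTATA began 237 bases before the start in Ctsg. In Cma1 the GATA match was TTATC, 194 bases before the start. The windows of Mcpt9, Mcpt8, Ctsg and Gzmb held neither GATAA nor TTATC. Searched on both strands, GATAA occurred in 22.6% of the 32851 promoter windows of this length in the table, TGTGGT in 14.05% and TATAAA in 12.4%. CACATG, one form of the E-box CANNTG and a sequence that MITF can bind, occurred in 12.25% of them. Among members CACATG was found in Ctsg only, 77 bases before the start, where it overlaps the reverse complement of TGTGGT. These matches describe letters and were not tested as binding sites.

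Cma1 and Mcpt4 made up nearly all RNA of the cluster, and the balance between them differed more than 20-fold between the groups. Cma1 and Mcpt8, with the lower Mcpt1 and Mcpt2, were higher in embryonic cells, while Mcpt4 and Ctsg were higher in adult cells. Levels are in CPM, a gene's counts scaled to a common library size, and a log2 fold change is of embryonic over adult. By the edgeR quasi-likelihood test with Benjamini-Hochberg adjustment over all genes, 4 members were called higher in the embryo and 2 in the adult, while 2 were not called and Mcpt9 was too low to be tested. Among all 15111 tested genes 31.2% were called higher in embryonic and 31.7% higher in adult libraries, 63.0% in all, so that 6 of 8 tested members is near the background. All 6 called members differed at least 2-fold, as did 38.0% of all genes. In 7 of the 8 the libraries of the groups did not overlap, 4 higher in embryonic and 3 in adult cells. Of all tested genes 70.0% did not overlap, 34.5% higher in embryonic and 35.5% in adult cells. The median log2 fold change was 0.72 over the tested members and -0.02 over all tested genes. In bulk RNA, fewer cells of a type and less RNA per cell cannot be told apart.

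**Figure D1:**
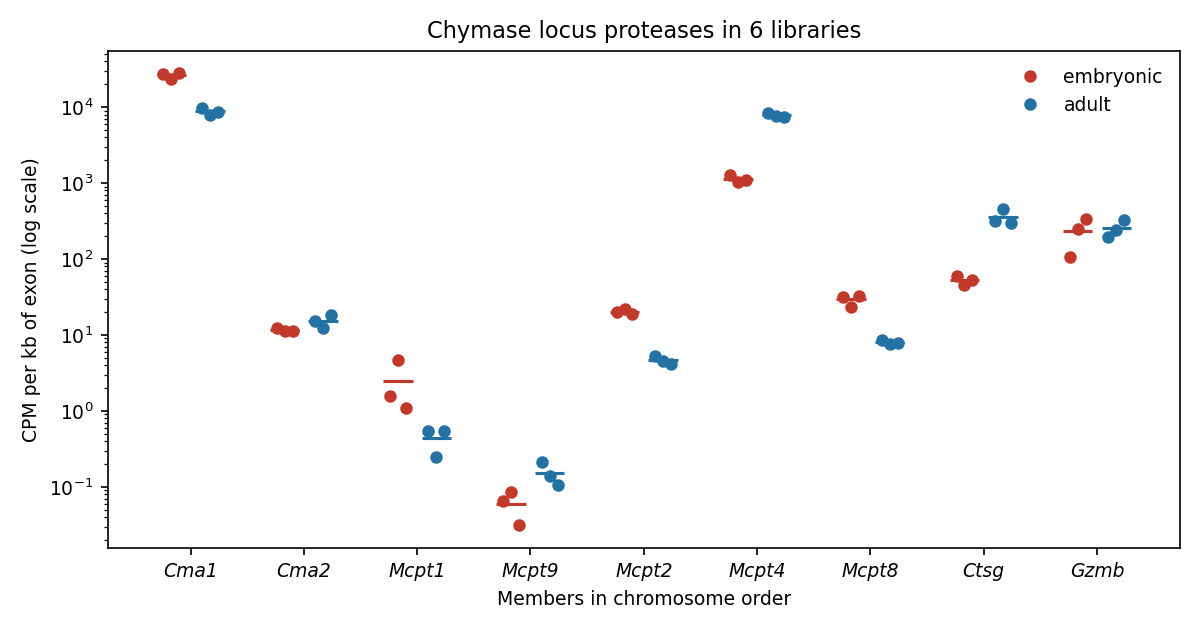
Level of each member in CPM per kb of exon (log axis) in each library, red for the 3 embryonic and blue for the 3 adult ones, with a horizontal line at each group mean and the genes in chromosome order. Cma1 is highest in both groups, with means of 26114 and 8781, and Mcpt4 moves from 1130 in embryonic to 7791 in adult libraries.

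Cma1 encodes an alpha-chymase, so named by sequence family and not by cleavage preference, which is stored in connective tissue mast cells. It stood at 29274, 24929 and 29937 CPM in embryonic libraries 1 to 3 and at 10431, 8454 and 9407 CPM in adult libraries 1 to 3. Each embryonic library was above every adult library. The groups averaged 28047 ± 2720 and 9431 ± 988 CPM (SD, n = 3), and the log2 fold change was 1.57 ± 0.12 SE, a 2.97-fold difference (adjusted p = 3.1e-06). Divided by exon length, Cma1 ranked 1 of 15111 tested genes in the embryonic mean and 1 again in the adult mean. So Cma1 kept the top place per length while its level differed. Its counts reached 1336 per exon base in the deepest library for this gene. The counting was told to ignore reads marked as duplicates, but whether any had been marked is not stated, and the effect on so dense a gene was not tested.

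Mcpt4 (56059744 to 56062310) encodes a beta-chymase, the main chymotrypsin-like enzyme of mouse connective tissue mast cells. Its embryonic libraries held 1251, 1032 and 1073 CPM and its adult libraries 8184, 7568 and 7389 CPM. The ranges were separated by a wide gap, and replicates lay close together in both groups. With means of 1119 ± 116 and 7714 ± 417 CPM, Mcpt4 was 6.90-fold higher in adult libraries (log2 fold change -2.79 ± 0.12 SE, adjusted p = 5.7e-08). Per length it ranked 13 in the embryonic and 4 in the adult mean. It was therefore an abundant RNA in both groups.

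The ratio of Mcpt4 to Cma1 within a library does not depend on how libraries are scaled. Per kb of exon, embryonic libraries held 21.6, 22.3 and 25.7 times more Cma1 than Mcpt4, and adult libraries 1.17, 1.03 and 1.17 times more. In adult cells the RNAs of Cma1 and Mcpt4 were nearly equal, with Cma1 still slightly ahead in each library. The log2 ratio averaged -4.53 ± 0.14 in embryonic and -0.17 ± 0.11 in adult libraries (SD, n = 3), a 20.6-fold shift. An exact 2-sided permutation test gave p = 0.1, the smallest that 3 against 3 libraries allow, and adjusted over the 8 ratios computed it was 0.114.

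**Figure D2:**
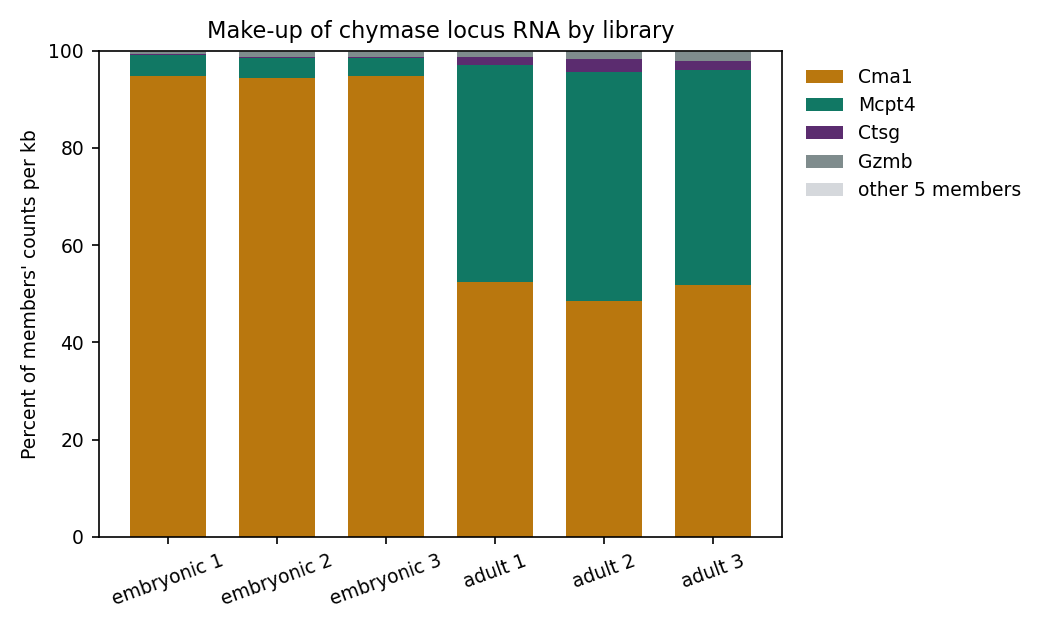
Make-up of the cluster's RNA in each library: stacked bars give each member's percent of the summed counts per kb of all 9 members, with the 5 lowest members combined. Cma1 takes 94.3% to 94.8% of each embryonic bar and 48.5% to 52.4% of each adult bar, and Mcpt4 fills most of the remainder.

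As a share of the members' summed counts per kb, Cma1 made up 94.6% ± 0.260 in embryonic and 50.9% ± 2.13 in adult libraries (SD, n = 3), and Mcpt4 4.10% ± 0.373 and 45.3% ± 1.55 (exact permutation p = 0.1 for each). Ctsg took 0.192% ± 0.0171 in embryonic and 2.08% ± 0.603 in adult libraries, and Gzmb 0.847% ± 0.417 and 1.496% ± 0.450 (exact permutation p = 0.1 and 0.2). The remaining 5 members each held at most 0.112% in any library. The 9 members together took 3.18%, 2.73% and 3.24% of all counts in genes in embryonic libraries and 1.92%, 1.64% and 1.64% in adult libraries. The cluster thus gave a larger part of the embryonic RNA, with no overlap between the groups (exact permutation p = 0.1).

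Mcpt1 (56017964 to 56020391), a beta-chymase best known from the intestinal mucosa, was low throughout. Embryonic libraries held 75, 171 and 54 counts, or 1.61, 4.84 and 1.13 CPM. Adult libraries held 28, 11 and 21 counts, or 0.563, 0.254 and 0.553 CPM. Embryonic library 2 stood above the others, and the lowest embryonic value was still above the highest adult value. Mcpt1 was 5.48-fold higher in embryonic libraries (log2 fold change 2.45 ± 0.62 SE, adjusted p = 0.0064), and 3.10-fold higher without embryonic library 2 (adjusted p = 0.033). Per kb its embryonic mean was 2.46 CPM against 1130 for Mcpt4, whose promoter window it resembles. In that library the Cma1 level was the lowest of the embryonic libraries while Mcpt1 was the highest.

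Mcpt2 (56042123 to 56044634) is a close relative of Mcpt1, also known from mucosal mast cells. It reached 19.7, 21.6 and 18.1 CPM in embryonic and 5.07, 4.38 and 4.05 CPM in adult libraries. Replicates were tight, and the groups were far apart at a modest level. It was 4.39-fold higher in embryonic libraries (log2 fold change 2.13 ± 0.16 SE, adjusted p = 2.3e-06). It lies 15109 bases from Mcpt4, whose fold ran the other way.

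Cma2 (55971428 to 55973995) and Mcpt9 (56026864 to 56030495) are near copies, with 98.1% of 738 coding bases identical. Cma2 was at 11.8, 10.6 and 10.8 CPM in embryonic and 14.6, 11.9 and 17.6 CPM in adult libraries. The adult values were only just above the embryonic ones, and the difference missed the threshold (log2 fold change -0.41 ± 0.17 SE, adjusted p = 0.060). It passed with upper quartile scaling (adjusted p = 0.047), when only genes reaching 1 CPM in 3 libraries were kept (0.043) and without adult library 2 (0.023). Mcpt9, a chymase known from uterine mast cells, had 6, 6 and 3 counts in embryonic and 21, 12 and 8 in adult libraries, and was not tested. The ratio of its summed counts per depth, adult over embryonic, was 2.55 (95% exact binomial interval 1.38 to 4.97, counting error only). Mcpt9 is near the limit of what the depth resolves, while Cma2, at 375 to 727 counts in each library, is not.

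Close copies matter here because reads that align to several places were not counted. Of the 50-base stretches in GENCODE M21 transcripts of Cma2, 39.8% also occurred in another gene, namely Mcpt4 or Mcpt9, and of those of Mcpt9 18.8% occurred in Cma2 or Mcpt4. The share was 5.48% for Mcpt4 (with Cma2 and Mcpt9), 5.38% for Cma1 (with the predicted gene Gm48934) and 0 for Mcpt1, Mcpt2, Mcpt8, Ctsg and Gzmb. At 100 bases it was 20.2% for Cma2, 10.6% for Mcpt9, 0.0991% for Mcpt4 and 0 for Cma1. The levels of Cma2 and Mcpt9 are therefore uncertain, and the read length is unknown here. Mcpt1 and Mcpt4, at 86.45% identity of coding bases, shared no stretch of 50 bases.

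Mcpt8 (56082166 to 56085216) encodes a granzyme-like protease that serves as a marker of basophils. It stood at 27.3, 20.1 and 28.2 CPM in embryonic and 7.34, 6.49 and 6.63 CPM in adult libraries. The groups did not overlap, and Mcpt8 was 3.70-fold higher in embryonic libraries (log2 fold change 1.89 ± 0.17 SE, adjusted p = 6.5e-06). Of 8 other basophil genes 2 were higher in embryonic libraries, 2 higher in adult libraries and 4 not called. Prss34, a basophil and mast cell protease, averaged 345 against 0.976 CPM. In the other direction Cyp11a1, a steroid enzyme, averaged 1853 and 3628 CPM. Cd200r3, a receptor of basophils and mast cells, averaged 403 and 392.2 CPM and was not called. The other called genes, named after their values were seen, were Grm6 (106 and 0.242 CPM) and Itga2 (80.0 and 217 CPM). None of the 8 was at 0 in all libraries. Their summed level ran from 2914 to 3097 CPM in the embryo and from 4308 to 4423 CPM in the adult. Cyp11a1 alone made up most of that sum in both groups, so the sum mainly follows this gene. The part of basophils in the Mcpt8 difference was not tested. The microRNA gene Mir6949, which lies within Mcpt8, had 0 counts in every library.

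Ctsg (56099881 to 56102574) encodes cathepsin G, a protease with chymase-like activity. Embryonic libraries held 60.8, 45.4 and 52.9 CPM and adult libraries 319, 452 and 295 CPM. Adult library 2 was highest, and all adult libraries lay well above the embryonic ones. Ctsg was 6.69-fold higher in adult libraries (log2 fold change -2.74 ± 0.18 SE, adjusted p = 2.3e-06). Its rank per length was 900 in the embryonic and 110 in the adult mean. Among 10 genes of neutrophil and monocyte precursors, Elane, which encodes neutrophil elastase, and Camp were at 0 in all 6 libraries and were named after their values were seen. The most abundant of the list were Prtn3 (57 counts in embryonic and 14 in adult libraries), Mpo (19 and 32) and Ms4a3 (4 and 32). Summed over the list, embryonic libraries held 0.501 to 0.902 CPM and adult ones 0.692 to 0.865 CPM. The part of such cells in the Ctsg difference was not tested.

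Gzmb (56258856 to 56262260) encodes granzyme B, which cuts after aspartate and can trigger apoptosis. Embryonic libraries spread over 153, 350 and 485 CPM, while adult libraries held 278, 340 and 468 CPM. The groups overlapped across most of their range. The test did not call a difference (log2 fold change -0.14 ± 0.44 SE, adjusted p = 0.81), and the sign turned to 0.23 without embryonic library 1 and to 0.09 without adult library 3. Per length Gzmb ranked 143 and 156, ahead of Ctsg in the embryonic mean and behind it in the adult mean. In adult library 3 alone among the adult libraries Gzmb was ahead of Ctsg, at 1.12 times its level per kb. Of 12 cytotoxic lymphocyte genes, Ncr1 and Klrb1c were at 0 in all 6 libraries, and the sum over the list, led by Nkg7, was 25.4 to 31.9 CPM in the embryo and 8.76 to 9.58 CPM in the adult. Prf1, which encodes perforin, the usual partner of granzyme B, had 39, 43 and 96 counts in embryonic and 0, 2 and 11 in adult libraries. Of the 4 genes of the list tested, 3 were called toward the embryo (Nkg7, Cd3g and Prf1) and 1 toward the adult. The last, Klrd1, a receptor chain of natural killer cells, had 11 counts in embryonic and 156 in adult libraries. Among the untested genes Cd3e had 1 and 42 counts, Cd8a 0 and 14, and Gzma 0 and 13. Klrd1 and these 3 were named after their values were seen. The part of lymphocyte RNA in the Gzmb values was not tested.

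The members thus did not move as a block along the chromosome. From Mcpt2 through Mcpt4 and Mcpt8 to Ctsg the direction changed at each step, over gaps of 15109, 19855 and 14664 bases. Per kb Ctsg stood at 1.90, 1.92 and 1.60 times Mcpt8 in embryonic libraries and at 37.1, 59.4 and 37.9 times Mcpt8 in adult libraries. Ctsg was thus ahead of Mcpt8 in every library, and by far more in adult cells. This 24.3-fold shift had an exact permutation p = 0.1, and all libraries of a group lay on one side.

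**Figure D3:**
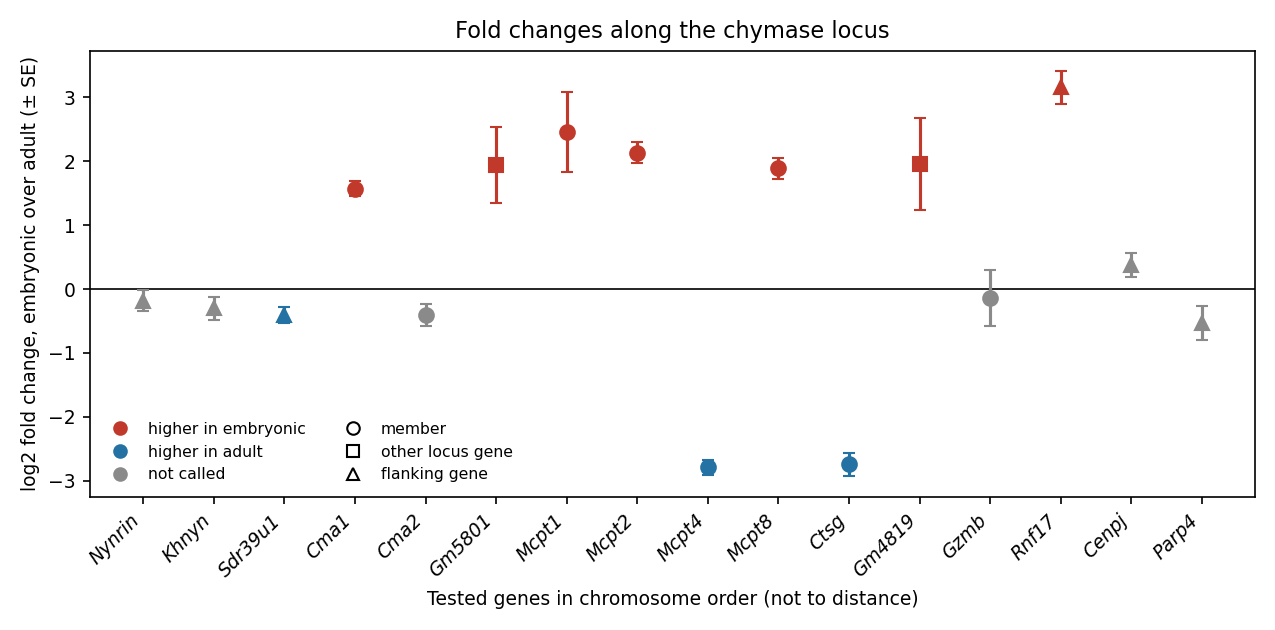
Log2 fold change of embryonic over adult (± SE) for each tested gene of the cluster and the 3 nearest tested genes on each side, in chromosome order and not to distance, with circles for members, squares for other genes of the cluster and triangles for flanking genes. Red points are called higher in embryonic, blue higher in adult and grey not called. Mcpt4 and Ctsg lie near -2.79 and -2.74 with Mcpt8 at 1.89 between them.

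The granzymes between Ctsg and Gzmb were nearly silent. Gzmg had 0 counts in every library and Gzmf 2 counts in all. Gzmd had 7 counts in embryonic and 1 in adult libraries, Gzme 10 and 3, and Gzmn 13 and 29. Gzmc, another granzyme of cytotoxic cells, had 46 counts in embryonic and 14 in adult libraries, of which 39 were in embryonic library 3. That library also had the highest Gzmb level. The pseudogenes Gm5801 and Gm4819 were called higher in embryonic libraries on 66 against 17 and 38 against 10 counts (adjusted p = 0.016 and 0.037). The Gm5801 call was lost without adult library 1 or 2 (adjusted p = 0.059 and 0.073). The Gm4819 call was lost without any 1 library other than adult library 1, with adjusted p-values up to 0.133. It was also lost with DESeq2 (0.124), with genes of at least 1 count kept (0.081) and with the replicate block (0.072), and the Gm5801 call with the block (0.051).

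Outside the cluster, 3 genes on the Cma1 side gave small differences. Nynrin and Khnyn were not called, and Sdr39u1 was 1.32-fold higher in adult libraries (adjusted p = 0.018), a call lost without embryonic library 1 (0.066) or adult library 1 (0.050) and with total counts scaling (0.052). On the Gzmb side Rnf17, a gene known from germ cells, lay 140436 bases away. Its embryonic mean of 9.55 ± 1.57 CPM was 8.91-fold above the adult 1.07 ± 0.199 (adjusted p = 3.7e-06). Cenpj and Parp4 beyond it were not called.

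For each called member the 2 genes nearest in profile were found by the Euclidean distance between log2 CPM values, centred on their mean, over the 6 libraries and 6561 genes. Cma1 lay nearest to Ppib, an endoplasmic reticulum cyclophilin, at a distance of 0.080, with means of 53.3 and 17.6 CPM, and then to Mrps2, a mitochondrial ribosomal protein, at 0.185. Mcpt8 lay nearest to Dbi (0.199) and Mrps2 (0.225), and Mcpt2 to Pbk, a mitotic kinase (0.151), and Rasal3 (0.168). Mcpt4 lay nearest to the transcription factor Nfic (0.281) and the surface receptor Cd84 (0.282). Ctsg lay nearest to Il6st, a cytokine receptor chain (0.419), and Nfic (0.431). Mcpt1 had no gene closer than Sipa1l1 at 0.901. Its own level was 0.254 to 4.84 CPM, while the genes searched averaged at least 20 CPM and 0.5 was added to CPM before the log2. The distance of Mcpt1 therefore cannot be compared directly with those of the other members.

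The list headed by cathepsin C held 7 lysosomal proteases and 3 cystatins, which inhibit such proteases. Ctsc, which encodes cathepsin C, the activator of granule serine proteases, averaged 1136 ± 58.7 CPM in the embryo, 2.16-fold above the adult 526 ± 43.7 (adjusted p = 9.8e-06). Ctsl, cathepsin L, rose from 15.6 to 48.7 CPM in the adult, 3.11-fold, and Cstb, a cysteine protease inhibitor, was 2.13-fold higher there. Ctss, cathepsin S, had 0, 1 and 14 counts in embryonic and 1407, 1426 and 575 in adult libraries. Of the 10 genes, all tested, 3 were called toward the embryo (Ctsc, Ctsd and the cystatin Cst7) and 6 toward the adult (Ctsl, Ctss, Ctsh, Lgmn and the cystatins Cstb and Cst3), with a median log2 fold change of -0.92. Of 8 tested macrophage genes 7 were higher in adult cells, and the sum over the list of 9 was 15.9 to 42.8 CPM in the embryo and 156 to 241 CPM in the adult. Lyz2, the lysozyme of macrophages, had 30, 3 and 33 counts in embryonic and 7067, 7277 and 2377 in adult libraries. None of the 9 was at 0 in all libraries. The part of macrophage RNA in these values was not tested.

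Genes of the proteoglycan that binds the proteases were called toward the embryo in 9 and toward the adult in 5 of 18 cases, with a median log2 fold change of 0.38. Srgn, the serglycin core protein, was 2.08-fold higher, at 2776 ± 298 against 1334 ± 96.3 CPM, but was chosen for description after its value was seen. Hs3st1 and Chsy1, enzymes of heparan and chondroitin sulfate chains, were 4.65-fold and 4.62-fold higher in embryonic libraries, and B3galt6, which builds the linker of these chains, 2.80-fold. Hs6st1, a heparan sulfate sulfotransferase, averaged 45.8 ± 3.48 CPM in the embryo and 169.6 ± 13.5 CPM in the adult, 3.71-fold more (adjusted p = 3.3e-07).

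Inhibitors of serine proteases were called higher in adult libraries in 6 and in embryonic libraries in 3 of 11 tested genes, with a median log2 fold change of -0.79. Serpinb6a, an intracellular inhibitor of cathepsin G, averaged 33.9 ± 4.81 CPM in the embryo and 271 ± 37.4 in the adult, 7.98-fold more (adjusted p = 1.4e-07). Serpinb1a, an inhibitor of elastase-like and chymase-like enzymes, was abundant in both groups and 1.73-fold higher in the adult (4897 ± 224 and 8473 ± 371 CPM). Serpinb9, an inhibitor of granzyme B, went from 7.70 CPM in the embryo to 15.4 CPM in the adult, a 2.004-fold difference. Spint2, a Kunitz-type inhibitor, was 5.65-fold higher in embryonic libraries at a mean of 14.4 CPM.

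Of 18 transcription factors tested, 7 were called toward the adult and 3 toward the embryo, with a median log2 fold change of -0.22. Lmo2 was 13.03-fold and Bhlhe40 7.38-fold higher in adult libraries, and Runx1 was 4.93-fold and Stat5a 3.18-fold higher there. Gata1 was 2.20-fold higher in the embryo (157 ± 21.1 and 71.5 ± 5.32 CPM). Gata2, named after its value was seen, was also called toward the embryo and was more abundant (3668 ± 348 and 2452 ± 316 CPM). Mitf, a regulator that mast cells need, described though the naming rule did not pick it, stood at 121 ± 9.70 and 113 ± 15.2 CPM and was not called (log2 fold change 0.11 ± 0.12 SE, adjusted p = 0.46). TGF-beta signalling is known to induce Mcpt1 in mucosal mast cells. Of the 5 listed genes of the ligand, its receptors and the inhibitor Smad7, 4 were higher in adult libraries. They include the receptors Tgfbr3, 10.2-fold higher, and Tgfbr2, 2.87-fold higher at 581 ± 55.8 against 202 ± 17.1 CPM, while Tgfb1 was not called. The call of Smad7 was lost when any 1 embryonic library was left out. Of the factors that carry the signal, counted among the 18 above, Smad3 was 2.83-fold higher in the embryo (25.8 ± 3.96 and 9.13 ± 2.34 CPM, adjusted p = 0.00012). Smad2 and Smad4 were not called. The 3 were named after their values were seen. The part of this pathway in the Mcpt1 difference was not tested.

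**Figure D4:**
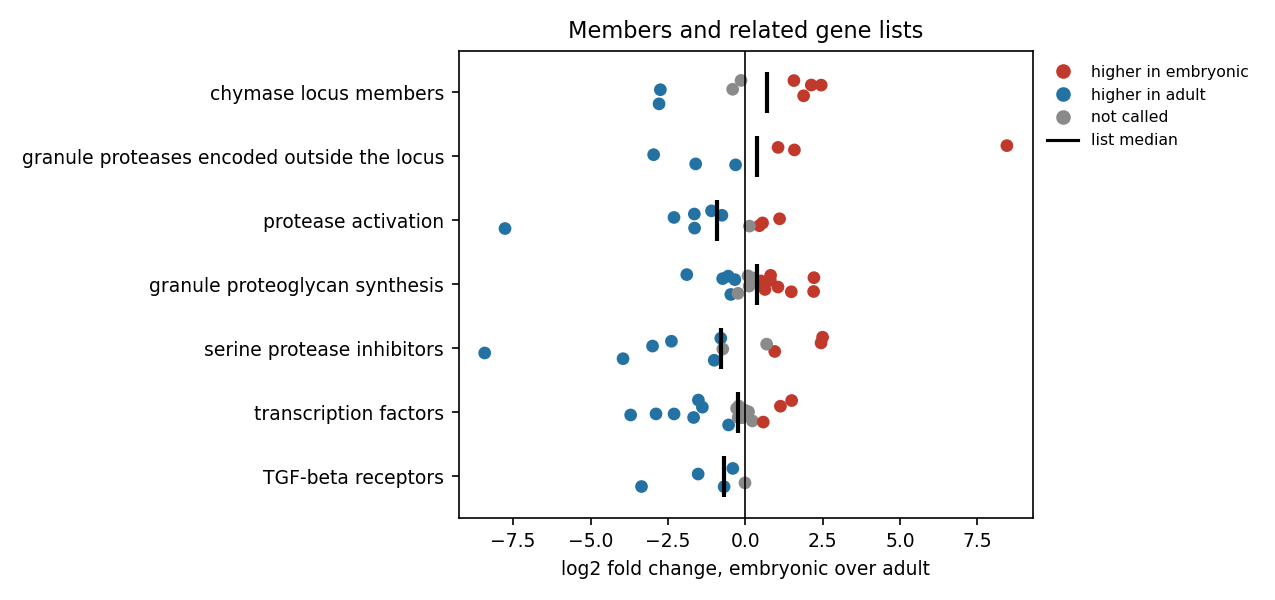
Log2 fold change of embryonic over adult for each tested member and each tested gene of 6 related lists, the last being TGF-beta pathway genes. Red points are called higher in embryonic, blue higher in adult and grey not called, with a black bar at each list median. Members spread to both sides, from -2.79 to 2.45, and list medians lie between -0.92 and 0.72.

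Granule proteases encoded elsewhere also divided, with 3 of 6 tested genes higher in each direction. Cpa3, the most abundant of them, was 3.01-fold higher in embryonic libraries (38759 ± 1621 and 12887 ± 1093 CPM, adjusted p = 1.3e-06). Per length it ranked 2 in both group means, next to Cma1. The tryptase Tpsb2 was 2.09-fold higher in embryonic libraries, and Tpsab1, chosen for description after its value was seen, 3.04-fold higher in the adult (895 ± 301 and 2718 ± 835 CPM, adjusted p = 0.0051). Gzmm, a granzyme outside the cluster, averaged 0.439 and 3.42 CPM in embryo and adult.

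As a check of the sorted cells, all 10 mast cell markers were detected. Their sum was 98690 to 104650 CPM in the embryo and 46538 to 49654 CPM in the adult. It was led by Hdc, Cpa3 and Tpsb2, each called toward the embryo. Of the 10 markers 5 were called toward the embryo, 3 toward the adult and 2 not at all. Those toward the adult include Ms4a2 (207 and 1545 CPM) and Slc18a2 (723 and 1609 CPM), named after their values were seen. Kit, used in both gates, was not called (4968 ± 326 and 5392 ± 488 CPM). Fcer1a, in the adult gate only, averaged 5.84 and 762 CPM, and Il1rl1, which encodes ST2 of the embryonic gate, 1521 and 887 CPM. Adgre1, which encodes F4/80, a marker both gates exclude, averaged 0.457 and 2.98 CPM and was called higher in the adult (6.41-fold, adjusted p = 0.0067). It was named after its value was seen. Total counts in genes ran from 34122162 to 49813523 per library. Keratinocyte and fibroblast genes gave sums of 602 to 1185 CPM in the embryo and 107 to 544 CPM in the adult, highest in embryonic library 3 and lowest in adult library 3, apart from the other adult libraries at 475 and 544. Of the 10 genes 2 were called toward the embryo (Krt1 and Krt10), 1 toward the adult and 7 not at all. The one toward the adult, Dcn, a fibroblast proteoglycan named after its value was seen, averaged 21.6 and 102.0 CPM, and its groups overlapped. The collagen genes Col3a1 (291 and 95.9 CPM), Col1a2 (137 and 83.4 CPM) and Col1a1 (147 and 53.6 CPM) were not called. In each of them every embryonic library was above every adult library. Col1a1 and Col3a1 were called toward the embryo in some refits, such as limma-voom (adjusted p = 0.0095 and 0.0093). The part of these cells in the results was not tested.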

How the data were processed

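The deposited table holds raw read counts for each gene. Reads over GENCODE M9 exons were tallied, per the file headers, by featureCounts 1.5.0-p1 without strand, marked duplicates ignored, and multi-mapped reads left out by default. STAR and GRCm38 are named in the submitters' processing notes. Library preparation, per the labels' protocols, used 10 ng of RNA, 10 cycles for cDNA and 12 for the library, and names no molecular identifiers.

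Symbols came from GENCODE M21 on the same assembly (47224 of 47643 IDs matched). Counts were tested with edgeR 4.0.16 (TMM, filterByExpr at its default minimum of 10 counts, robust quasi-likelihood, threshold 0.05), embryonic against adult, on 15111 genes. CPM used scaled library sizes; a floor of 3 counts was 0.0603 to 0.0850 CPM. Antisense reads cannot be told apart. Libraries of a group differed beyond counting noise (chi-square per degree of freedom 34.3 to 89.1). The test was checked on simulated counts in which only a small part of the genes was changed. Scaling and false calls under a change as broad as in these data were not checked. Alternatives included DESeq2 1.42.0 and limma-voom 3.58.1. Likeness used log2(CPM + 0.5) for genes averaging at least 20 CPM. Identity is over aligned bases of a global alignment (Biopython 1.88).

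The members and lists were chosen with earlier results of these data known. Named were all members, the other genes of the cluster, the 3 nearest tested genes on each side, in each list the 4 genes of smallest adjusted p plus 1 from the less frequent direction, the 3 most abundant genes of each marker list, gate genes and the 2 genes nearest in profile to each called member. Some of these are not reported. Other genes, such as those listed to complete a count of calls, were named after their values were seen.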

Additional observations from a re-analysis of the deposited data

How the results depend on the processing

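The 6 member calls kept direction and threshold under all 15 refits: RLE, upper quartile and total counts scaling, both other filters, DESeq2, limma-voom, a non-robust edgeR fit, the replicate block and each left-out library. Members higher in embryonic libraries numbered 4 in each setting, and those higher in adult libraries 2, or 3 where Cma2 passed. Called genes of all tested numbered 8796 to 9221 with a library left out, 7580 at an adjusted p under 0.01 and 5744 when at least 2-fold. With the replicate block 8848 genes and the same 4 and 2 members were called. Replicate numbers did not pair the libraries: deviations of same-numbered libraries correlated at -0.12, -0.08 and -0.13 across genes, and no library correlated best with its own number. The Mcpt4 to Cma1 shift was 4.28 to 4.41 on the log2 scale with a library left out. Without division by exon length, the adult minus embryonic difference in share was -42.1 in place of -43.7 percentage points for Cma1 and 39.4 in place of 41.2 for Mcpt4, since genes differ in exon length. Uncalled genes that changed sign were Gzmb (-0.49 to 0.23 with a library left out: 0.23 without embryonic replicate 1, 0.09 without adult replicate 3), Cd200r3 (-0.048 to 0.147, below 0 without adult replicate 3) and Csf1r (-0.40 to 0.14, above 0 without embryonic replicate 1 or, at 0.10, 2, and 0.014 with total counts scaling). Depth limits Mcpt9 and the other granzymes, whose counts stayed at or under 39 in a library.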
